A study of Mus musculus with 8 samples.

Results

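The genes described here are the 74 gene symbols of the HSP families (29) and the DNAJ families (45), picked by their names from 23044 named gene symbols. These families were chosen with earlier results of these data known. They form 73 measured units, because Hspa1a and Hspa1b were given as 1 joint entry in 3 libraries and Hspbp1 shares entries with Ppp6r1 and Tmem86b. Of these, 64 units (65 symbols) reached at least 1 FPKM (fragments scaled to transcript length and library size) in at least 2 of the 8 libraries and were tested. The other 9 stayed below 1 FPKM in every library, at 0.922 or less, and 8 of them were above 0 in at least 1 library.

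Molecular chaperones are proteins that help other proteins fold, assemble or stay soluble. HSP70 proteins bind unfolded stretches of a client and release them in an ATP-driven cycle. DNAJ proteins, the J-domain partners, deliver clients and switch on the HSP70 ATPase, and HSP110 proteins exchange the nucleotide so that the cycle can begin again. HSP90 proteins act later on signalling clients, HSP60 with HSP10 forms the folding chamber of mitochondria, and small HSPs hold unfolded protein without using ATP. In the cytosol many of these genes are switched on by heat shock factor 1 during heat or protein stress, and those of the endoplasmic reticulum (ER) by the unfolded protein response. Pluripotent stem cells are known for high constitutive levels of several of them, such as Hspa8.

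RNA was sequenced from 4 groups of mouse pluripotent stem cells, 2 libraries each, all grown in serum with the cytokine LIF. CDGC1 and CDGC6 are 2 stem cell lines from early teratoma cells of newborn testis; both were Dnd1 ter/ter on a 129Sv background with the Oct4deltaPE-GFP reporter, at passages 15 to 18. The control was wild-type E14tg2a embryonic stem (ES) cells of 129/Ola background at passages 10 to 12, and Dnd1-KD ES cells were the same cells, at the same passages, with Dnd1 knocked down by a method not given in the sources used here. Each derived group is 1 line, and differs from the control in Dnd1 genotype, strain, reporter, passage and origin together, so these cannot be told apart. Whether both libraries of a group stem from different cultures is not given in the labels, so p-values measure the spread of these libraries alone, and that spread may be technical.

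The fragments implied by the files numbered 10.7 M to 18.0 M per library, and 76.8% to 85.6% of all FPKM belonged to assembled transcripts that carry no gene symbol. The targeted gene could not be checked: Dnd1 was listed at 0 in 6 libraries and, in both Dnd1-KD libraries, only within an entry joined with Hars, at 53.9 and 57.6 FPKM. All 8 pluripotency markers listed were above 0 in every group, with summed levels of 2193 to 2202 FPKM in control, 1057 to 1295 in Dnd1-KD, 1851 to 1945 in CDGC1 and 2463 to 2815 in CDGC6. The 10 fibroblast or feeder markers summed to 8.57 to 9.47 FPKM in control, 12.7 to 13.2 in Dnd1-KD, 37.4 to 39.0 in CDGC1 and 26.6 to 34.4 in CDGC6. The 8 germ cell markers summed to 72.1 to 74.8 FPKM in control, 121 in both Dnd1-KD libraries, 4.14 to 4.80 in CDGC1 and 40.5 to 51.6 in CDGC6. The 10 testis somatic markers summed to 8.56 to 13.1 FPKM over all libraries, with Fshr at 0 in every group. Lum, of the fibroblast list, was at 0 in CDGC6 and Dnd1-KD, Nanos2, of the germ cell list, in all groups but Dnd1-KD, and Mael and Sycp3 in CDGC1. Of the 6 leukocyte markers 1 or 2 reached 1 FPKM in any group, and their sums of 1051 to 1695 FPKM come mostly from Cd68, given in an entry joined with neighbours such as Eif4a1. The testis somatic and leukocyte sums overlapped between CDGC1 and CDGC6. Pluripotency, fibroblast or feeder and germ cell sums did not overlap between the groups of any comparison below. The part of these marker levels in the chaperone differences was not tested. In bulk RNA, fewer cells with a transcript and less of it per cell cannot be told apart.

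Promoters of the chaperone genes differ in the elements they carry, and 7 are shown as examples that hold an element of heat shock or ER stress control. Other members compared below, such as Dnajb6, Hspd1, Dnaja4 and Hsph1, also hold a heat shock match and are not shown. The sequences are from RefSeq on GRCm38.p6, the build also called mm10; 60 of the 74 members have an entry, and the 250 bases before the start site were searched on both strands. Capitals mark the heat shock element core (a GAANNTTC pair in Hspa1a, Hspa1b and Hspb1, and overlapping matches to 3 units, GAA, TTC and GAA with NN between each, in Hspe1) or the ER stress element (CCAAT, any 9 bases, then CCACG, in either orientation, in Hspa5, Dnajc3 and Hsp90b1).
Hspa1a, chr17:34972157-34972286, minus strand: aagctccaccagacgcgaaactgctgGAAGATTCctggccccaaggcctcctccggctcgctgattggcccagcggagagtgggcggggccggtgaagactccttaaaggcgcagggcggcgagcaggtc
Hspa1b, chr17:34959239-34959368, minus strand: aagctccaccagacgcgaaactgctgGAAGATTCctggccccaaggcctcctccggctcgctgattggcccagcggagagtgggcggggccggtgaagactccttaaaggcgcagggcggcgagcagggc
Hspb1, chr5:135887789-135887918, plus strand: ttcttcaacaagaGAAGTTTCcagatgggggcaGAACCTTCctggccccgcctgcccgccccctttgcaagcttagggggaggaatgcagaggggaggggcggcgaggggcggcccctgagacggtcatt
Hspe1, chr1:55088018-55088147, plus strand: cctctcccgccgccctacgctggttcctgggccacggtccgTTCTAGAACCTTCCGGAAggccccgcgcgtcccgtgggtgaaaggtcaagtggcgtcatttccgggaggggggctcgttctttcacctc
Hspa5, chr2:34771960-34772089, plus strand: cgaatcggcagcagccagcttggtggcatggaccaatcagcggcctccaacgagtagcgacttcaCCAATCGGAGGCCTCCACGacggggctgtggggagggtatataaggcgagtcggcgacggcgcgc
Dnajc3, chr14:118937802-118937931, plus strand: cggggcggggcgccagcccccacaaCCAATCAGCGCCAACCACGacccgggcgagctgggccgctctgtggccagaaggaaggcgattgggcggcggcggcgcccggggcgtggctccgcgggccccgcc
Hsp90b1, chr10:86705445-86705664, minus strand: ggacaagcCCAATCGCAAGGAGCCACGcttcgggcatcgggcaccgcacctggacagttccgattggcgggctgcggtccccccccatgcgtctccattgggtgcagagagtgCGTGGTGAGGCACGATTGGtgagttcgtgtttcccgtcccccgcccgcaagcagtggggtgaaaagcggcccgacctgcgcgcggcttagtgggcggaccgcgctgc

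The upstream stretches of Hspa1a and Hspa1b were equal at 247 of 250 bases (98.8%), which shows how alike these copies are. The GAANNTTC pair lay 104 to 97 bases before the start in both. The GAANNTTC pair was present in 11 of the 60 members (18.3%) against 7.73% of 27025 genes, and the other order, TTCNNGAA, in 6 (10%) against 8.11%. Both pairs are contained in the element of 3 units, which occurred in Dnajb6, Hspd1 and Hspe1 (5%) against 0.514% of genes. Hspd1 and Hspe1, the mitochondrial HSP60 and HSP10, are transcribed away from each other and hold the same stretch between them. The ER stress element occurred in Dnajc3, Hsp90b1 and Hspa5 (5%) against 0.130% of genes, and lay 65 to 47 bases before the start of Hspa5. Matches to ATTGG, any base, then CCACG, the second ER stress element, or to TGATGCAA, the amino acid response element, were found in no member promoter searched, against 0.0370% and 0.918% of genes. A match describes letters and not a site in use, and Hspa8, Hsp90aa1 and Hsp90ab1 were not among the promoters searched. Dnajb1, Hspb8 and Hspa4l were searched and held no heat shock match. A relation between matches and levels was not tested.

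Chaperone transcripts were abundant in all 4 groups, and a few genes made up most of the total. The members' FPKM values summed to 13583 and 14053 in control, 16509 and 18080 in Dnd1-KD, 11182 and 11771 in CDGC1 and 11393 and 11454 in CDGC6, so the sums did not overlap between control, Dnd1-KD and the derived lines. Hspa8, the constitutive cytosolic HSP70, held 22.5% to 34.6% of the sum, Hsp90ab1, the constitutive cytosolic HSP90, 16.5% to 27.2%, and Hsp90aa1, its inducible paralogue, 10.3% to 15.6%. Together these 3 genes took 59.5% to 65.8% of the sum. The 45 DNAJ genes together took 8.27% to 11.8%. The HSP70 class took 35.6% and 36.1% in control, 44.3% and 45.7% in Dnd1-KD and 28.0% to 32.8% in the derived lines.

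**Figure D1:**
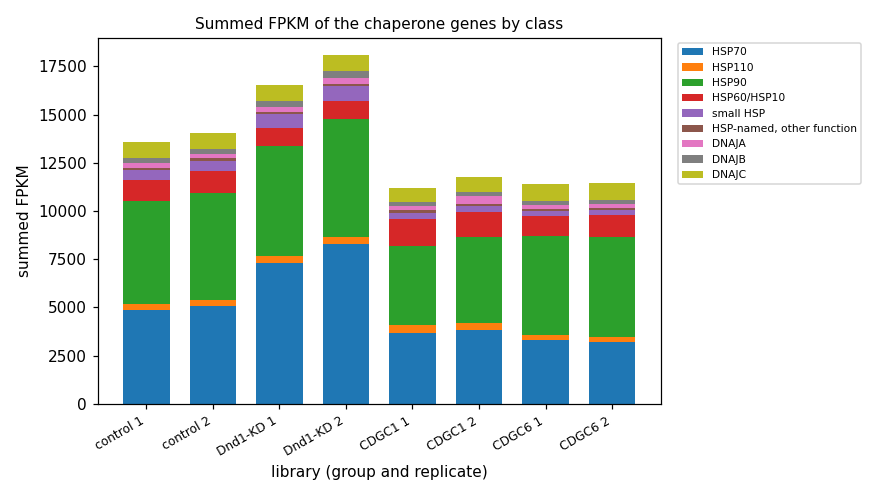
Summed FPKM of the chaperone genes in each of the 8 libraries (bars), stacked by class. The bars reach 16509 and 18080 in Dnd1-KD against 13583 and 14053 in control, and HSP70 (blue) and HSP90 (green) form most of every bar.

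Hsp90ab1, the most abundant HSP90, was at 2809 and 2975 FPKM in control, 2792 and 2976 in Dnd1-KD, 2539 and 2770.5 in CDGC1 and 3094 and 3068 in CDGC6. None of its 4 comparisons passed the test (limma on log2 of FPKM + 1, two-sided, Benjamini-Hochberg adjustment over all 11895 units, threshold 0.05; adjusted p = 0.0610 to 0.977). All differences below are on this log2(FPKM + 1) scale, with the standard error (SE) of the fit, and understate the change of low genes. All adjusted p-values come from this limma fit.

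When Dnd1-KD ES cells were set against control ES cells, 23 chaperone units were higher and 7 lower, out of 64 tested. Over all 11895 units 36.2% were called, 20.7% higher and 15.5% lower, against 46.9% of the chaperone units, 35.9% higher and 10.9% lower. The median difference of the chaperone units was 0.17, and that of all units 0.02. The libraries of the groups did not overlap in 50 of the 64, or 78.1%, near the 79.6% of all units. The rises included Hspa1a with Hspa1b and 8 of 13 ER members, and the falls included Hspa4 and 3 of 9 mitochondrial members.

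Hspa1a and Hspa1b, which encode the strictly inducible cytosolic HSP70, had the largest rise. The joint unit was at 38.2 and 52.5 FPKM in control and 351 and 622 in Dnd1-KD, a ratio of the means of 10.7. Both Dnd1-KD libraries lay far above both control libraries, and differed from each other more than the control libraries did. The difference was 3.35 ± 0.30 (SE, n = 2 per group; adjusted p = 0.00148, limma). Hspa8 was at 3970.0 and 4167 FPKM in control and 5705 and 6095 in Dnd1-KD, with no overlap and a difference of 0.54 ± 0.07 (adjusted p = 0.00387). Hspa8 is near the top of every library, and after quantile normalization, which sets the top values of all libraries equal, the call was lost (adjusted p = 0.300). Hspa2, known from spermatocytes, was at 3.14 and 3.60 against 6.09 and 6.63 FPKM, a difference of 0.75 ± 0.15 (adjusted p = 0.0134). Hspa12a, a distant relative of HSP70, was low, at 0.640 and 0.571 against 1.58 and 2.04 FPKM (difference 0.80 ± 0.14, adjusted p = 0.00767). It passed the filter on low values only through the Dnd1-KD libraries, where it is high, so its place among the 23 rises is no support for them.

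**Figure D2:**
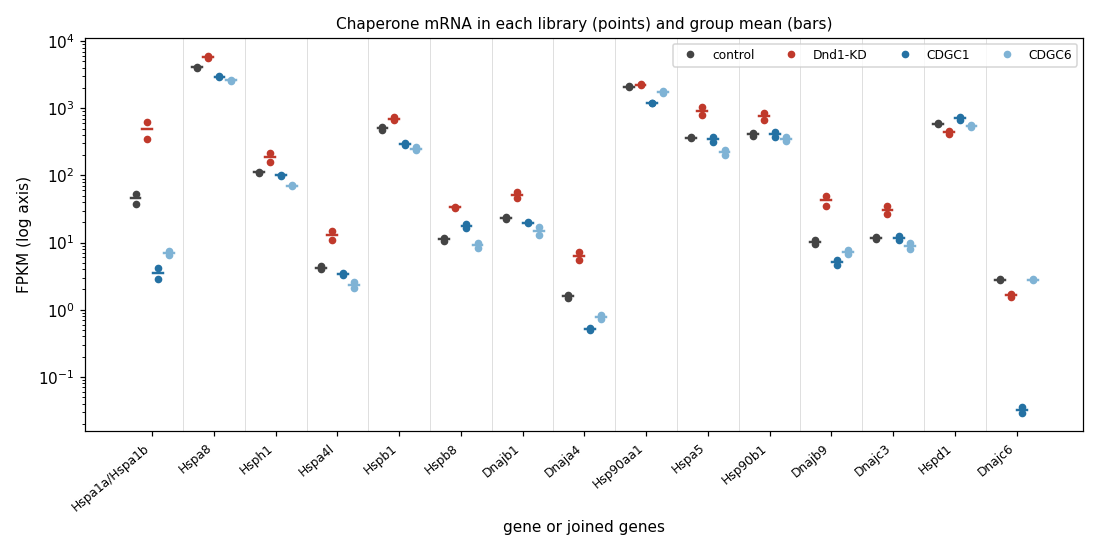
FPKM of 15 chaperone units on a log axis in each library (points) with the mean of each group of 2 libraries (bars). Hspa1a/Hspa1b spans 2.87 to 622 FPKM over the 8 libraries, while Hsp90aa1 spans 1207 to 2269.

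Of 42 tested members outside the ER and mitochondria 14 (33.3%) rose and 4 (9.52%) fell in Dnd1-KD, beside 20.7% and 15.5% of all units. The median difference of the 42 was 0.06. The rises numbered 7, 9 and 8 without the first control, the second control and the second Dnd1-KD library, and the falls 0 without the first control library and 2 without any of the other 3 compared. Dnajb1, the main heat-inducible J-domain protein, was at 22.5 and 24.2 FPKM in control and 46.6 and 56.5 in Dnd1-KD (difference 1.10 ± 0.14, adjusted p = 0.00330). Dnaja4, a class A J-domain protein, rose from 1.47 and 1.68 to 5.42 and 7.21 FPKM (difference 1.50 ± 0.13, adjusted p = 0.00148). In both genes the 2 Dnd1-KD libraries were the highest of all 8 libraries. Of the HSP110 exchange factors, Hspa4l was at 4.02 and 4.43 against 10.8 and 14.7 FPKM, a difference of 1.39 ± 0.16 (adjusted p = 0.00258). Hsph1, the heat-inducible HSP110, was at 108 and 114 against 159.5 and 213 FPKM, a difference of 0.73 ± 0.13 (adjusted p = 0.00936). Hspa4, the constitutive HSP110, went the other way, from 225 and 213 FPKM in control to 163 and 161 in Dnd1-KD, a difference of -0.43 ± 0.07 (adjusted p = 0.00693). The HSP110 class thus held 2 rises and 1 fall among its 3 members. Groups overlapped in none of the 3, and 79.6% of all units had no overlap either. Other cytosolic DNAJ genes rose by less: Dnajb2, a J-domain protein with ubiquitin-interacting motifs, by 0.78 ± 0.16 (adjusted p = 0.0140) and Dnajb4 by 0.63 ± 0.11 (adjusted p = 0.00876).

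Both small HSPs that were tested and above 0 in every library rose. Hspb8, the partner of the co-chaperone Bag3 in selective autophagy, was at 10.7 and 11.8 FPKM in control and 32.9 and 34.4 in Dnd1-KD (difference 1.50 ± 0.11, adjusted p = 0.000882). Hspb1 (HSP25 in the mouse) was far more abundant, at 476 and 529 against 661 and 730.4 FPKM, with a smaller difference of 0.47 ± 0.10 (adjusted p = 0.0137). The Dnd1-KD libraries were above both control libraries in both genes. Hsp90aa1, by contrast, was at 2117 and 2107 FPKM in control and 2245 and 2269 in Dnd1-KD, so its difference of 0.10 ± 0.06 missed the threshold (adjusted p = 0.272).

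Of the 13 tested members assigned to the ER, 8 (61.5%) rose and 0 fell, beside 20.7% higher and 15.5% lower over all units. All 13 had both Dnd1-KD libraries above both control libraries, where 79.6% of all units had no overlap in either direction. The median difference of the 13 was 0.53. The rises numbered 4 without the first control library and 5 without the second Dnd1-KD library. Hspa5 (BiP), the HSP70 of the ER, was at 357 and 377 FPKM in control and 799 and 1048 in Dnd1-KD (difference 1.32 ± 0.16, adjusted p = 0.00321). Hsp90b1 (GRP94), the HSP90 of the ER, was at 391 and 430.0 FPKM in control and 678 and 864 in Dnd1-KD (difference 0.90 ± 0.15, adjusted p = 0.00745). In both genes the Dnd1-KD libraries were the highest of the 8. Dnajb9 (ERdj4), a BiP partner in ER-associated degradation, had the largest rise of the DNAJ genes above 0 in every library, from 9.61 and 11.0 to 35.5 and 49.5 FPKM (difference 1.93 ± 0.17, adjusted p = 0.00148). Dnajc3 (p58IPK), an ER J-domain protein and inhibitor of the kinase PERK, rose from 11.2 and 12.1 to 26.8 and 35.3 FPKM (difference 1.33 ± 0.16, adjusted p = 0.00286). Hspa5, Hsp90b1 and Dnajc3 are the members whose promoters, printed above, hold the ER stress element. Dnajb9, Dnajb11, Dnajc10 and Dnajc16, which also rose, were searched and held no match, and Hspa13 was not searched. Hspa13, an HSP70 fold protein of microsomes, was at 7.85 and 7.86 against 13.5 and 14.7 FPKM (difference 0.77 ± 0.11, adjusted p = 0.00452). Dnajb11 (ERdj3) differed by 0.63 ± 0.15 (adjusted p = 0.0197), Dnajc16 by 0.53 ± 0.13 (adjusted p = 0.0214) and Dnajc10 (ERdj5), a disulfide reductase, by 0.43 ± 0.09 (adjusted p = 0.0130). The 5 ER members that did not pass were Dnajb12, Dnajb14, Dnajc1, Dnajc18 and Dnajc25, with differences of 0.14 to 0.34. Dnajc14, counted outside the ER here, was not called either. It was at 12.6 and 12.8 FPKM in control and 15.5 and 13.4 in Dnd1-KD.

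Of 9 mitochondrial members tested, 3 (33.3%) fell and 1 rose, beside 15.5% lower and 20.7% higher over all units. The 1 called higher, Dnajc30, had 0 listed in both control libraries. The falls numbered 1 without either control library. Hspd1 was at 598 and 581 FPKM in control and 463 and 416 in Dnd1-KD (difference -0.42 ± 0.08, adjusted p = 0.0118). Its partner Hspe1, with the same promoter stretch printed above, was at 537 and 557 FPKM in control and 499.7 and 546 in Dnd1-KD, where the groups overlapped (difference -0.07 ± 0.07, adjusted p = 0.506). Dnajc15, a J-domain protein of the mitochondrial import motor, fell from 32.1 and 30.3 to 21.2 and 22.1 FPKM (difference -0.51 ± 0.07, adjusted p = 0.00348), and Dnajc11, of the inner membrane organizing complex, differed by -0.39 ± 0.11 (adjusted p = 0.0397). Hspa9, the mitochondrial HSP70, was at 359 and 357 FPKM in control and 349 and 390.4 in Dnd1-KD, and the groups overlapped. The remaining falls, beside that of Hspa4, were in the cytosol: Hspa14, a ribosome-associated HSP70, differed by -0.27 ± 0.06 (adjusted p = 0.0155), Dnajc21, of ribosome assembly, by -0.34 ± 0.09 (adjusted p = 0.0303) and Dnajc6 (auxilin), which uncoats clathrin vesicles, by -0.52 ± 0.08 (adjusted p = 0.00604).

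Single libraries left out changed the calls of this comparison to different degrees. Leaving out a compared library leaves 1 in its group, so a lost call does not by itself show that the difference rested on it. For Dnajb2 the difference stayed at 0.75 to 0.81. Leaving out a library of another group does not alter the difference, as for Dnajc11 at -0.39. Calls for 11 of the 30 units held under all alternatives run for them (Hspa1a with Hspa1b, Hspa5, Hspa13, Hspa4l, Hspb8, Dnaja4, Dnajb1, Dnajb9, Dnajc3, Dnajc15 and Dnajc30). The count of rises was 12 without the first control library and 14 without the second Dnd1-KD library. The count of falls was 1 and 3 without the first and the second control library, and 4 without either Dnd1-KD library. Hsp90b1, Hsph1, Hspa4 and Dnajc6 were lost without the first control library (adjusted p = 0.0527 to 0.0625), and Hspa12a without the second (adjusted p = 0.0517). Hspb1 and Dnajb11 were lost when the first control or the second Dnd1-KD library was left out (adjusted p = 0.0795 to 0.112), and Hspa2, Hspd1, Dnajb4 and Dnajc10 without either control or the second Dnd1-KD library (adjusted p = 0.0530 to 0.0922). Hspa14, Dnajb2, Dnajb5, Dnajc5, Dnajc16 and Dnajc21 were lost without any 1 of the 4 libraries compared (adjusted p = 0.0559 to 0.138), and Dnajc11 without any 1 of the 8 libraries other than the second Dnd1-KD library (adjusted p = 0.0532 to 0.169).

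**Figure D3:**
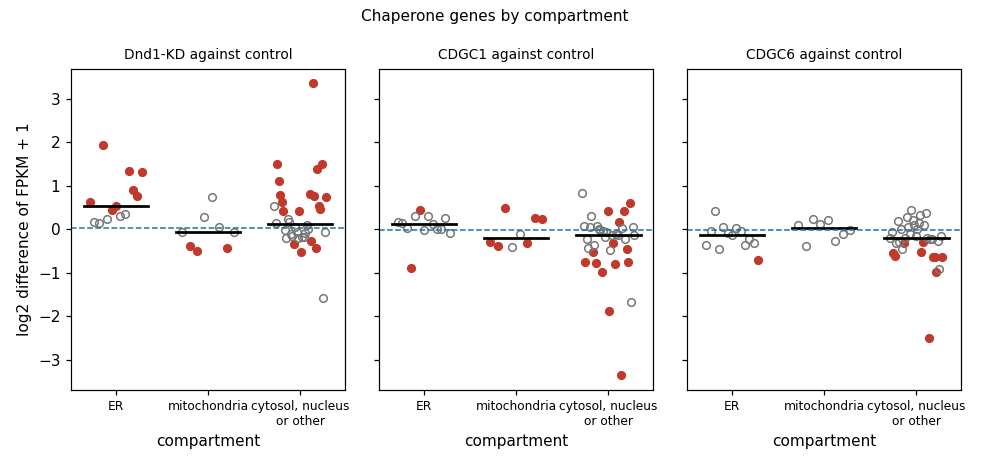
Log2 differences of FPKM + 1 against control for chaperone genes with no library at 0, by compartment, in 3 comparisons that share the control libraries. Filled red points passed the test (adjusted p under 0.05), black bars are medians of the points shown and the dashed line is the median of all 11895 units; in Dnd1-KD all 13 ER points lie above 0.

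Genes that work with the chaperones were read from lists by function. These lists were chosen with earlier results of these data known, so their counts are given as a description. Of 27 ER folding and degradation genes tested, 21 rose and 0 fell in Dnd1-KD, with a median difference of 0.74, beside 20.7% higher and 15.5% lower over all units. Of the 21, Syvn1 was listed at 0 in both control libraries, which can be a failed estimate. Herpud1, of ER-associated degradation, was at 6.89 and 8.85 FPKM in control and 29.1 and 44.3 in Dnd1-KD (difference 2.07 ± 0.22, adjusted p = 0.00214), and Hyou1 (GRP170), the HSP110 of the ER, rose from 55.7 and 59.8 to 104 and 124 FPKM (difference 0.96 ± 0.10, adjusted p = 0.00220). Leaving out 1 library at a time gave 10 to 21 rises, the lowest without the first control library and 12 without the second Dnd1-KD library. Of 10 other heat-inducible genes tested, 9 rose and 0 fell, with a median of 1.53. Serpinh1 (HSP47), the collagen chaperone, rose from 41.7 and 50.7 FPKM in control to 160.3 and 192 in Dnd1-KD (difference 1.91 ± 0.13, adjusted p = 0.000575), and Hmox1, heme oxygenase, from 58.6 and 52.1 to 153 and 169 (difference 1.53 ± 0.12, adjusted p = 0.00109).

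The other lists held rises, falls or both, to be read beside the same 36.2% of all units called. Of 6 heat shock factors and regulators, 4 were higher (Hsf4, Hsf5, Hsbp1 and Hsf2) and 0 lower. Hsf1, the main activator of the heat shock response, was at 20.3 and 21.2 FPKM in control and 19.8 and 17.4 in Dnd1-KD (difference -0.15 ± 0.10, adjusted p = 0.279). Hsf4 and Hsf5 passed the filter only through the Dnd1-KD libraries, where they are high, so their calls are no support for the list. Hsbp1 and Hsf2 were lost without either control or the second Dnd1-KD library, Hsf2 also without either CDGC6 library (adjusted p = 0.0677 to 0.154 over both genes). The count was 2 without either control library and 1 when the second Dnd1-KD library was left out, where Hsf5 was no longer among the units tested. Of 27 HSP70 and HSP90 co-chaperones, 4 rose and 6 fell, a share near that of all units. Bag3, a nucleotide exchange factor that works with Hspb8, rose from 10.9 and 11.7 to 23.7 and 28.8 FPKM (difference 1.14 ± 0.16, adjusted p = 0.00401), and Fkbp8, a membrane co-chaperone, had 0 listed in each Dnd1-KD library, against 79.4 and 79.3 FPKM in control. Of 15 CCT chaperonin and prefoldin genes, 0 rose and 4 fell, the largest difference being in Pfdn1, at 432 and 440.5 FPKM in control and 82.8 and 87.3 in Dnd1-KD. Of 15 mitochondrial chaperones and proteases, 2 rose and 5 fell, with Clpb, a mitochondrial disaggregase, falling from 35.3 and 37.1 to 16.9 and 16.0 FPKM (difference -1.09 ± 0.07, adjusted p = 0.000371). Leaving out 1 library moved these counts. Co-chaperone rises numbered 1 without either control library and 2 without the second Dnd1-KD library, and falls 2 without the second control and 3 without the second Dnd1-KD library. CCT and prefoldin falls numbered 1 without the first control library, 1 without the second Dnd1-KD library and 2 without either of the others compared. Mitochondrial rises numbered 0 without either control library and 1 without either Dnd1-KD library, and falls 2 without the first control library and 3 without any of the other 3 compared.

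The derived lines were compared with the same 2 control libraries, so their differences are not independent of those of Dnd1-KD and are given side by side. In CDGC1, 11 chaperone units were higher and 15 lower than in control, out of 64. Dnajc30 and Hspa1l, among the rises, had 0 listed in control, and Dnajb3, among the falls, in 1 CDGC1 library. Of the 57 units above 0 in every library, 8 were higher and 14 lower. Over all units 50.5% were called, 23.5% higher and 27.0% lower, against 40.6% of the chaperone units, 17.2% higher and 23.4% lower, and the median difference was -0.03 in both. The shares of the chaperone units lay below those of all units in both directions. The count of rises was 7 without the first control library. Groups did not overlap in 48 of 64 units, or 75.0%, against 78.7% of all units.

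Hspa1a with Hspa1b was the lowest of its 4 groups in CDGC1, at 2.87 and 4.18 FPKM against 38.2 and 52.5 in control, a ratio of the means of 0.0777 (difference -3.35 ± 0.30, adjusted p = 0.000292). Where the files gave the copies apart, Hspa1a was at 1.15 and 1.65 FPKM and Hspa1b at 1.72 and 2.53 in the CDGC1 libraries, against 23.8 and 28.8 in the second control library, so both copies were low. Hspa8 was at 2911 and 3028 FPKM (difference -0.45 ± 0.07, adjusted p = 0.00290) and Hspb1 at 288 and 308 (difference -0.75 ± 0.10, adjusted p = 0.00120). Hsp90aa1, which had not passed in Dnd1-KD, was at 1215 and 1207 FPKM against 2117 and 2107 (difference -0.80 ± 0.06, adjusted p = 0.000160). In each of these genes both CDGC1 libraries lay below both control libraries.

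The largest fall among the DNAJ genes was Dnajc6, at 0.0357 and 0.0288 FPKM in CDGC1, 2.83 and 2.73 in control and 2.84 and 2.73 in CDGC6 (CDGC1 against control, difference -1.87 ± 0.08, adjusted p = 1.88e-05). It was near 0 in CDGC1 alone. Dnajc21 was at 37.0 and 43.2 against 79.5 and 80.1 FPKM (difference -0.98 ± 0.09, adjusted p = 0.000341), and Dnajc13, of endosomal trafficking, at 17.4 and 15.2 against 28.9 and 28.5 (difference -0.78 ± 0.08, adjusted p = 0.000598). Dnajb9 fell to 4.71 and 5.42 FPKM (difference -0.90 ± 0.17, adjusted p = 0.00604) and Dnaja4 to 0.502 and 0.526 (difference -0.76 ± 0.13, adjusted p = 0.00422, but 0.0810 after quantile normalization). Dnajb6, which keeps aggregation-prone proteins soluble, fell from 140.1 and 136 to 94.9 and 95.6 FPKM (difference -0.53 ± 0.11, adjusted p = 0.00712). Apart from Dnajb9 no ER member fell, and Hspa5 (311 and 379 FPKM), Hsp90b1 (372 and 449 FPKM) and Dnajc3 (10.9 and 12.4 FPKM) each had libraries that overlapped those of control.

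Among units above 0 in every library, the largest rise that passed in CDGC1 was that of Hspb8, at 16.2 and 18.8 FPKM (difference 0.60 ± 0.11, adjusted p = 0.00594). Hspa4 was at 308 and 279 (difference 0.42 ± 0.07, adjusted p = 0.00344). Dnajc15 was at 43.8 and 44.3 FPKM (difference 0.49 ± 0.07, adjusted p = 0.00142) and Dnajc10 at 35.4 and 38.6 (difference 0.45 ± 0.09, adjusted p = 0.00630). Hspa12b, of endothelium, was at 1.32 and 1.93 FPKM against 0.294 and 0.291 in control (difference 1.01 ± 0.17, adjusted p = 0.00335), and was listed at 0 in the first Dnd1-KD library. It passed the filter only through the CDGC1 libraries, where it is high, so its call is given as a description. Calls for Hspd1, Hspe1, Hspa14, Hspa9, Dnaja3, Dnajc5, Dnajc9 and Dnajc11 passed in the full fit at adjusted p = 0.0176 to 0.0479. All 8 were lost without either control library, Hspd1, Hspe1, Hspa14, Dnajc9 and Dnajc11 also without the first CDGC1 library, and Hspe1, Hspa9, Dnaja3 and Dnajc11 without the second. Hspa14 and Hspa9 were further lost without either Dnd1-KD library, and Dnajc9 without either CDGC6 library (adjusted p = 0.0529 to 0.204 over all these).

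In CDGC6, 3 units were called higher and 11 lower than in control, against 18.7% of all units called, 8.46% higher and 10.2% lower. The chaperone shares were 21.9%, 4.69% higher and 17.2% lower, with a median difference of -0.12 against -0.01 for all units. The 3 higher calls were Dnajc30, Hspa1l and Hspb6, each listed at 0 in at least 1 control library, so 0 of the 57 units above 0 in every library were called higher (limma), and 5 of those 57 were higher at an unadjusted p under 0.05. Groups did not overlap in 49 of 64 units, or 76.6%, against 71.3% of all units.

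Hspa1a with Hspa1b was at 7.54 and 6.51 FPKM in CDGC6 (difference from control -2.52 ± 0.30, adjusted p = 0.00514), with all 4 derived libraries below both control libraries. Hspa8 was at 2670.1 and 2573 FPKM (difference -0.63 ± 0.07, adjusted p = 0.00437) and Hspb1 at 237 and 267 (difference -0.99 ± 0.10, adjusted p = 0.00252). These 3 falls and the call for Dnajc30 held under all alternatives run for them. The other 8 falls were Hspa5 at 243 and 203 FPKM (-0.72 ± 0.16, adjusted p = 0.0328), Hsph1 at 71.3 and 69.1 (-0.65 ± 0.13, adjusted p = 0.0234), Hspa4l at 2.61 and 2.10 (-0.64 ± 0.16, adjusted p = 0.0405), Hsp90aa1 at 1668 and 1781 (-0.29 ± 0.06, adjusted p = 0.0267), and Dnajb1, Dnajc9, Dnaja4 and Dnajc13, with differences of -0.32 to -0.61. The count of falls was 4 without either CDGC6 library and 3 without either control library, and that of rises 1 without the first control library. Each of these 8 was lost without either control library, Dnajb1 also without the second CDGC6 library, Hsp90aa1 without the first, and the other 6 without either. Dnajc13 and Hspb6 were further lost without either Dnd1-KD library, Hspb6 also without either CDGC1 library, either CDGC6 library or the first control library, and Hspa1l without either control library (adjusted p = 0.0522 to 0.213 over all these).

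**Figure D4:**
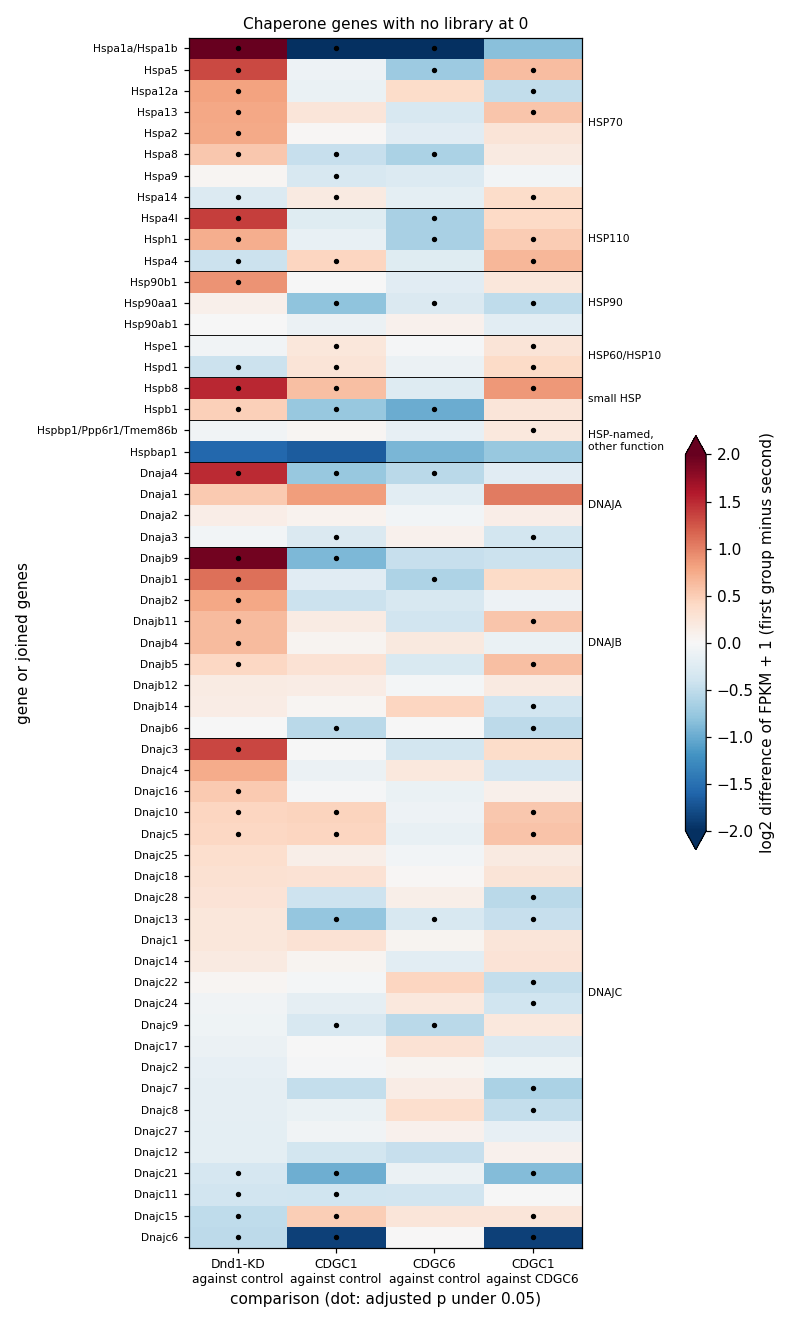
Log2 difference of FPKM + 1 (colour, cut at -2 and 2) of the 57 tested chaperone units with no library at 0, in 4 comparisons, grouped by class; a dot marks an adjusted p under 0.05. Red marks any positive difference, called or not. Red cells with a dot in the first column are the 22 rises in Dnd1-KD. No unit shown was called higher in CDGC6 than in control.

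The derived lines also differed from each other. CDGC1 was higher than CDGC6 in 15 units and lower in 14, against 47.2% of all units called, 23.0% higher and 24.1% lower. The chaperone shares were 45.3%, 23.4% higher and 21.9% lower, near those of all units, and the median difference was 0.09 against -0.02. Groups did not overlap in 51 of 64 units, or 79.7%, against 72.8% of all units. Hspa4 was at 308 and 279 FPKM in CDGC1 and 182 and 189 in CDGC6 (difference 0.66 ± 0.07, adjusted p = 0.000707), on either side of the control libraries. Hspb8 was at 16.2 and 18.8 FPKM in CDGC1 and 8.42 and 10.0 in CDGC6 (difference 0.86 ± 0.11, adjusted p = 0.00161), and Hspd1 at 739 and 679 in CDGC1 and 521 and 563 in CDGC6 (difference 0.39 ± 0.08, adjusted p = 0.0102). Hsp90aa1, Dnajc6 and Dnajc21 were lower in CDGC1, with differences of -0.51 ± 0.06, -1.87 ± 0.08 and -0.87 ± 0.09 (adjusted p = 0.00118, 2.61e-05 and 0.000673). Hspa1a with Hspa1b was lower in both CDGC1 libraries than in both CDGC6 libraries, but the test was not passed (-0.84 ± 0.30, adjusted p = 0.0628). Hspa8 and Hspb1 did not pass either (adjusted p = 0.0857 and 0.0810).

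Several calls between the lines were also lost when 1 library was left out. Where that library was of control or Dnd1-KD, the difference itself stayed the same, as for Dnajb14 at -0.39. Hspa5, at 0.62 ± 0.16 (adjusted p = 0.0222), was lost without the second library of either line, and Hsph1, at 0.50 ± 0.13 (adjusted p = 0.0214), without any 1 of the 4 libraries of the lines. Dnaja3 was lost without the second CDGC6 library. Dnajb11 was lost without the first CDGC1 or either CDGC6 library, Dnajc24 without the second CDGC1 or either CDGC6 library, Dnajc7 without either CDGC1 or the first CDGC6 library and Hspa12a without either CDGC1 or the second CDGC6 library. Hspbp1, joined with its neighbours, was lost without either CDGC6 or either control library. Hspe1 and Dnajc15 were lost without either CDGC1, the first CDGC6 or either control library. Dnajb14, Dnajc28 and Dnajc22 were lost without the first CDGC1 library or any 1 control or Dnd1-KD library, and also without the second, the first and either CDGC6 library, respectively (adjusted p = 0.0504 to 0.202 over all these calls). The count of lower calls was 9 without the first CDGC1 library or either CDGC6 library.

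The same companion lists were counted in the derived lines, beside 50.5% of all units called in CDGC1 and 18.7% in CDGC6. ER folding and degradation genes held 5 rises and 6 falls in CDGC1 and 2 rises and 2 falls in CDGC6, of 27 tested. Syvn1, with its zeros in control, is 1 of the rises in each line. In CDGC1 the rises and falls were 2 and 3 without either control library, and the falls also 3 without the first CDGC1 library. Other heat-inducible genes held 2 rises and 2 falls in CDGC1, and 0 rises and 3 falls in CDGC6 (limma), of 10. The rises in CDGC1 numbered 1 without the first CDGC1 or either control library, and the falls in CDGC6 0 without any 1 of the 4 libraries compared. Serpinh1 was at 167 and 155 FPKM in CDGC1, near the Dnd1-KD level, while CDGC6 was at 47.9 and 42.7. Bag3 was at 24.2 and 27.1 FPKM in CDGC1 (difference from control 1.11 ± 0.16, adjusted p = 0.00170). Pfdn1 was at 85.7 and 90.2 FPKM in CDGC1 and 87.2 and 96.8 in CDGC6, so the control libraries stood apart from the other 6, and Clpb was at 14.6 and 14.5 FPKM in CDGC1 and 18.9 and 18.9 in CDGC6, likewise below control. Co-chaperones held 7 rises and 6 falls in CDGC1 and 0 rises and 1 fall in CDGC6, of 27, in CDGC1 a share near that of all units, with 3 and 2 falls in CDGC1 without the first CDGC1 and the second control library. Mitochondrial chaperones and proteases held 1 rise and 8 falls in CDGC1 and 0 rises and 1 fall in CDGC6, of 15. The falls in CDGC1 numbered 5 without the first CDGC1 library, 2 without the first control library and 3 without the second. CCT and prefoldin genes held 3 rises and 1 fall in CDGC1 and 1 rise and 1 fall in CDGC6, of 15, and heat shock factors 2 rises and 3 falls in CDGC1 and 0 of either in CDGC6, of 6, with Hsf4 among these rises and Hsf5 among these falls. The heat shock factor rises in CDGC1 numbered 1 without the first CDGC1 library and 0 without the second, or without either CDGC6 or either control library. The other CDGC6 counts, of 0 to 2, ranged over 0 to 4 as single libraries were left out.

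Not every chaperone gene could be measured. Of the 73 units, 12 were listed at 0 in at least 1 library, and 7 of these passed the filter. Such zeros can be failed estimates: of the 12 symbols, 8 overlap another protein-coding gene in GENCODE vM21, against 17 of the 62 with no zero, and the part of overlap in these zeros was not tested. Dnajc19, of the mitochondrial import motor, was listed at 0 in all 8 libraries and overlaps Fxr1 on the other strand. Dnajc30 overlaps Bud23 and was listed at 0 in both control libraries, at 6.52 and 5.17 FPKM in Dnd1-KD, 6.73 and 6.17 in CDGC1 and 7.70 and 8.80 in CDGC6, so its 3 calls against control have no fold. Hspa1l, the testis HSP70 next to Hspa1a, was listed at 0 in the 4 E14tg2a libraries and at 0.797 and 1.11 FPKM in CDGC1 and 1.11 and 0.738 in CDGC6. It passed the filter only through the derived lines, where it is high, so its calls against control are given as a description. Dnajb3, within the Ugt1a genes, was at 0 and 0.0348 FPKM in CDGC1 and 0.750 to 1.33 elsewhere. It was called lower in CDGC1 than in control and in CDGC6 (limma, adjusted p = 0.00222 and 0.00216). It reached 1 FPKM only in the first CDGC6 and the first Dnd1-KD library, where it is high, so these calls are given as a description. Hspb11, named for its fold but a part of the cilium transport complex, was listed at 0 in the first library of control and of Dnd1-KD and at 10.6 and 11.5 in their second libraries. It was at 27.4 and 30.2 FPKM in CDGC1 and 13.0 and 12.4 in CDGC6, and no comparison passed. Hspb6, a small HSP of muscle, was listed at 0 and at 1.26 FPKM in the control libraries and at 2.74 and 2.82 in CDGC6. Hspb2, which overlaps Cryab, was listed at 0 in 6 libraries and reached 1.90 FPKM at most.

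Other members had wide deposited intervals, as Dnaja1, or narrow ones but libraries that differed within a group, as Hspbap1. The interval of Dnaja1 ran from 0 to 231 FPKM in the first CDGC1 library. Those of Hspbap1 ran from 30.2 to 36.9 and from 8.66 to 9.91 in the CDGC1 libraries. Dnaja1, a partner of HSP70 in client folding, was given only within an entry joined with the microRNA gene Mir207. It was at 94.4 and 99.5 FPKM in control, 129 and 153 in Dnd1-KD, 84.2 and 83.2 in CDGC6 and 102 and 294 in CDGC1, so the second CDGC1 library stood apart from the other 7. Hspbap1, an HSPB1-binding protein, was at 61.2 and 56.9 FPKM in control, 26.1 and 14.0 in Dnd1-KD, 33.6 and 9.29 in CDGC1 and 49.5 and 19.1 in CDGC6, and none of its comparisons passed although its differences from control were -0.91 to -1.67. The deposited intervals of the 2 libraries of a group lay apart for 8 of 56 units in control and 18 in CDGC6. They lay apart for 19 in Dnd1-KD and 27 in CDGC1. Among these 56 units the libraries thus differed by more than their counting error least often in control. The share over all units was not computed, and the part of library depth was not tested. The 9 untested units were Dnajb7, Dnajb8, Dnajb13, Dnajc5b, Dnajc5g, Dnajc19, Hspb3, Hspb7 and Hspb9, of which Hspb9 was the highest, at 0.875 and 0.922 FPKM in CDGC1 against 0.115 to 0.519 elsewhere.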

How the data were processed

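RNA from 4 groups of mouse stem cells, 2 libraries each, was sequenced and the deposited tables hold FPKM values with intervals per transcript entry, made by the authors; TopHat2, Bowtie, Cufflinks, Cuffdiff and mm10 are named per the submitters' processing notes, without versions or roles. From the deposited FPKM, entries were summed per gene symbol, or per joined set of symbols where an entry named several in any library, and log2(FPKM + 1) was fitted with limma 3.58.1 in R 4.3.3 (1 mean per group over all 8 libraries, moderated variance with trend), keeping the 11895 units that reached 1 FPKM in 2 or more libraries. Differences between 2 groups were tested two-sided with Benjamini-Hochberg adjustment over all units. FPKM keeps no counts, so depth is given only as the fragments implied by the intervals. Tables were joined with pandas 2.3.3 in Python 3.11.15, gene overlaps were taken from the GENCODE annotation and promoters from RefSeq.

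All HSP class members could be named. Of the DNAJ and other members, in each comparison up to 8 with the largest difference in each direction were named among those that passed with no library at 0, and of each companion list up to 4 with the smallest p. Members and list genes outside this rule were also named, after their values were seen. Among the reasons were calls lost when 1 library was left out and members that did not pass or were not tested. Others were members with wide intervals or libraries that differed, and the level of Hsf1 in Dnd1-KD. The members and lists were chosen with earlier results of these data known. Alternatives changed the pseudocount, filter, scaling, libraries and variance model. The treatment of joined entries was changed for the counts of calls only. Calls of single units, that of Hspa1a with Hspa1b among them, were not checked against it.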

Additional observations from a re-analysis of the deposited data

Results flagged for a closer look

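For 12 chaperone units the 2 derived lines lay on opposite sides of both control libraries and differed from each other in the test of that difference (limma, CDGC1 minus CDGC6, log2 of FPKM + 1). CDGC1 lay above control and CDGC6 below for Hspb8 (0.86), Hspa4 (0.66), Dnajb5 (0.60), Dnajc5 (0.58), Hspa13 (0.56), Hspd1 (0.39), Hspa14 (0.37) and Hspbp1 with its joined neighbours (0.21). CDGC1 lay below control and CDGC6 above for Hspa12a (-0.49), Dnajc8 (-0.47), Dnajc24 (-0.40) and Dnaja3 (-0.37). These lines share the control libraries as their reference, and each group is 1 line with 2 libraries. Between the lines 47.2% of all 11895 units were called and 72.8% did not overlap. The share of all units that meet the full rule was not computed, so the 12 units are given as a description.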

How the results depend on the processing

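Leaving out 1 library gave 12 to 25 higher and 1 to 6 lower chaperone units in Dnd1-KD, 7 to 12 and 11 to 16 in CDGC1, 1 to 4 and 3 to 14 in CDGC6, and 10 to 16 and 9 to 13 for CDGC1 against CDGC6. A 2-fold minimum left 9 higher and 0 lower in Dnd1-KD and 2 and 2 in CDGC1. It left 2 and 1 in CDGC6, and 0 and 1 between the lines. Dnajc30, listed at 0 in both control libraries, is 1 of the rises left in each group against control. The other rise left in CDGC1 is Hspa12b, which passed the filter only through CDGC1. The other in CDGC6 is Hspb6, listed at 0 in the first control library. The calls for Dnajc30, Hspa12b and Hspb6 are given as a description. A filter of 5 FPKM gave 1 higher in CDGC6 and 9 lower between the lines, and a fit on only the compared groups gave 9 lower between the lines. In alternatives chosen after seeing the data, averaging the control libraries gave 13 higher and 2 lower in Dnd1-KD and 3 lower in CDGC6, and keeping members with no library at 0 gave 0 higher in CDGC6.

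Replicate numbers did not pair the libraries: deviations of same-numbered libraries correlated at -0.05 to 0.12. With the replicate block the counts were 23 and 8 in Dnd1-KD, 10 and 16 in CDGC1, 3 and 7 in CDGC6, and 16 and 14 between the lines. Direction reversed in 3 cases: Hspa12a between the lines (0.015) and Hsf5 between the lines (0.21) after quantile normalization, and Rgs2 in CDGC1 with no filter (0.13). The cause was not tested. Calls held under all alternatives run for 11 of 30 units in Dnd1-KD, 17 of 26 in CDGC1, 4 of 14 in CDGC6 and 15 of 29 between the lines.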
